A study of Mus musculus with 24 samples.

Results

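Thyroid hormone acts through nuclear receptors, and 6 genes of that system were followed in cultured mouse oligodendrocytes exposed to ethanol. They were the hormone receptors Thra and Thrb, their heterodimer partner Rxra, the corepressor Ncor1 and the response genes Klf9 and Hr. The genes were taken by symbol from the 55359 genes of the counts matrix, where their identifiers are ENSMUSG00000058756 (Thra), ENSMUSG00000021779 (Thrb), ENSMUSG00000015846 (Rxra), ENSMUSG00000018501 (Ncor1), ENSMUSG00000033863 (Klf9) and ENSMUSG00000022096 (Hr). All 6 had enough counts to be tested in every comparison.

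The cells were sorted with magnetic beads carrying an antibody to O4, a surface antigen of immature oligodendrocytes, from the cortex of C57Bl6J pups aged 5 to 7 days. They differentiated for 3 days with triiodothyronine (T3), the active thyroid hormone, as the main differentiating factor, and were then kept for 3 more days with or without ethanol. Experiment 1 compared 6 wells at 30 mM ethanol with 6 control wells at 0 mM, and experiment 2 compared 6 wells at 10 mM with 6 other control wells at 0 mM. All 24 wells thus came from T3-differentiated cells, and no well without T3 was analysed here. Whether T3 stayed in the medium during the exposure, and whether the wells of a group came from separate pups or cell preparations, is not given in the sources used here, so p-values measure the spread between wells. Control plates stood in another incubator, and any effect of that incubator cannot be told apart from ethanol. Each dose was used in 1 experiment and batch, so the effects of dose and of experiment cannot be told apart.

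Libraries were made by 3′ TagSeq, which reads a short tag near the 3′ end of each transcript, and they held 1184609 to 1817028 counts per well. Levels are given as CPM, the counts per 1e6 counts of the well. They were not divided by gene length, because a transcript gives a tag near its end whatever its length. At these depths 3 counts correspond to 1.65 to 2.53 CPM. All 9 oligodendrocyte markers examined were detected in each group, with summed levels of 4489 to 9673 CPM per well, and the 9673 CPM belonged to 30 mM replicate 1, which stood apart from the other wells of its group. The cultures also held RNA of other cells: the summed level of 8 astrocyte markers was 3583 to 5844 CPM, and that of 9 microglia markers was 116 to 214 CPM in experiment 1 against 1304 to 1788 CPM in experiment 2.

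The receptors bind DNA at hormone response elements, mostly as heterodimers with a retinoid X receptor. Without T3 they hold corepressor complexes, such as those built around Ncor1, on their target genes, and T3 exchanges these for coactivators. In the oligodendrocyte lineage T3 is known for promoting the exit of precursors from division and the onset of myelin gene expression. Klf9, a Kruppel-like transcription factor, and Hr, a corepressor called hairless, are widely used readouts of T3 action in the brain.

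The Thra gene gives 2 main proteins whose ends differ, and these are shown because the gene's count adds both. In the GENCODE annotation of mouse build GRCm38, the coding sequences of the transcripts Thra-202 (1230 bases) and Thra-201 (1476 bases) share their first 1111 bases and then part. The 45 coding bases on each side of that point follow, 5′ to 3′, with the unshared bases in capitals.
Thra-202: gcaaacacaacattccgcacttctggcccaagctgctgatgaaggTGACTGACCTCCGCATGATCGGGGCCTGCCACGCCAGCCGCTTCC
Thra-201: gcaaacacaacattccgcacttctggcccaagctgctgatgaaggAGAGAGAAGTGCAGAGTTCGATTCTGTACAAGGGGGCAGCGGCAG
The shorter protein binds T3, whereas the longer one carries a different carboxyl end and is known not to bind the hormone. The end of Thra-201, its last exon and part of its last intron, overlaps the gene Nr1d1, which codes for the clock repressor REV-ERB alpha on the opposite strand, over 1075 bases, while Thra-202 ends 2820 bases short of Nr1d1. Both transcripts enter 1 gene count, and the strand setting of the counting is not given in the sources used here, so neither the 2 Thra forms nor tags from the overlap with Nr1d1 can be told apart.

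**Figure D1:**
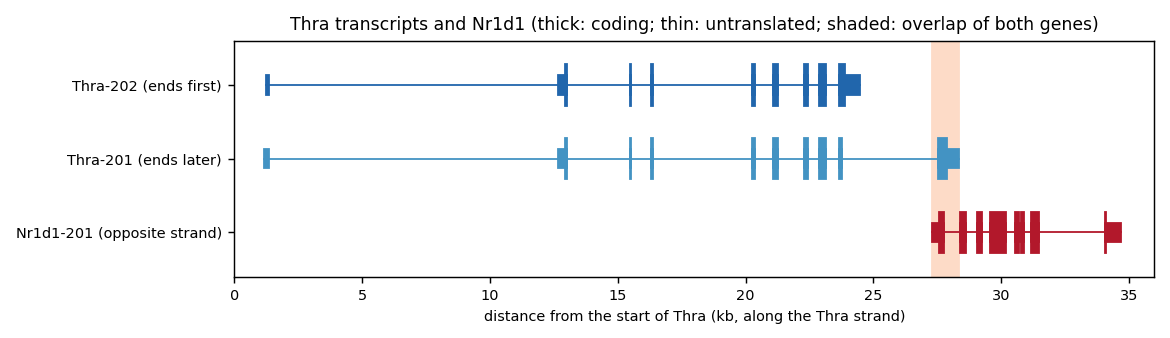
Exons of Thra-202, Thra-201 and Nr1d1-201 against distance from the start of Thra (kb, GRCm38 annotation), with thick boxes for coding and thin boxes for untranslated exons. The shaded 1075 bases are where Thra-201, but not Thra-202, overlaps Nr1d1.

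Promoter windows of 300 bases, from 250 before to 50 after an annotated transcription start, were read from RefSeq (GRCm38.p6) and were found for 4 of the 6 genes, in 7 windows (Klf9, Ncor1, Rxra and Thrb). The core receptor motif AGGTCA, searched on both strands, was in 2 of the 7 windows, 1 of Rxra and 1 of Thrb, and in 16.3% of all 32851 windows. The full element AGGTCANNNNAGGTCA, a direct repeat of the core motif spaced by 4 bases, was in 5 of all windows (0.0152%) and in none of the 7. The stretches around the matches are shown on the plus strand, with the core motif or its reverse complement in capitals. They are shown because they are the receptor motif letters found beside members of the receptor pair itself.
Thrb (chr14:17660746-17660811): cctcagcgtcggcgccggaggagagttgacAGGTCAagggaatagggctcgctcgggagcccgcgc
Rxra (chr2:27709175-27709279): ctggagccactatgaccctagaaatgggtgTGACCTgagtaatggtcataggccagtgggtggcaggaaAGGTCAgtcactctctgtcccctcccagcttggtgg
The 2 matches of Rxra start 87 and 48 bases before 1 of its annotated starts, and the match of Thrb starts 184 bases before 1 of its own. The other window of each of these genes held no match. These matches describe letters in a window and were not tested for binding.

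Over all 24 wells the order of mean tag levels was Ncor1 (226 CPM), Thra (204 CPM), Klf9 (145 CPM), Rxra (43.5 CPM), Thrb (18.1 CPM) and Hr (11.0 CPM). The wells of neighbours in this order overlapped for Ncor1 and Thra, for Thra and Klf9, and for Thrb and Hr, but every well of Klf9 lay above every well of Rxra and every well of Rxra above every well of Thrb. Hr was read at 374 counts over all 24 wells together. The receptor pair was uneven: a well held 11.6 ± 2.82 (SD, n = 24) Thra counts per Thrb count, with a range of 7.58 to 19.0. The Thra count adds the form that does not bind T3 and may hold tags from the Nr1d1 overlap. The value is thus a ratio of gene counts and not of receptors that bind the hormone.

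At 30 mM ethanol, 1 of the 6 genes passed the test, Thra, which was higher than in the controls. That is 16.7% of the 6, where 9.67% of the 13235 genes tested passed in this comparison (3.02% higher and 6.65% lower). The test was edgeR's quasi-likelihood test, with p-values adjusted by Benjamini-Hochberg over all genes tested and a threshold of 0.05. At 10 mM ethanol 0 of the 6 passed, where 0.657% of 13538 genes did, and the count was also 0 at an unadjusted p under 0.05 and with DESeq2 or limma voom. DESeq2 gave no adjusted p-value for Hr and Thrb at 10 mM. The median log2 fold change of the 6 was 0.02 at 30 mM and 0.06 at 10 mM, beside 0.02 and -0.0023 over all genes tested.

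**Figure D2:**
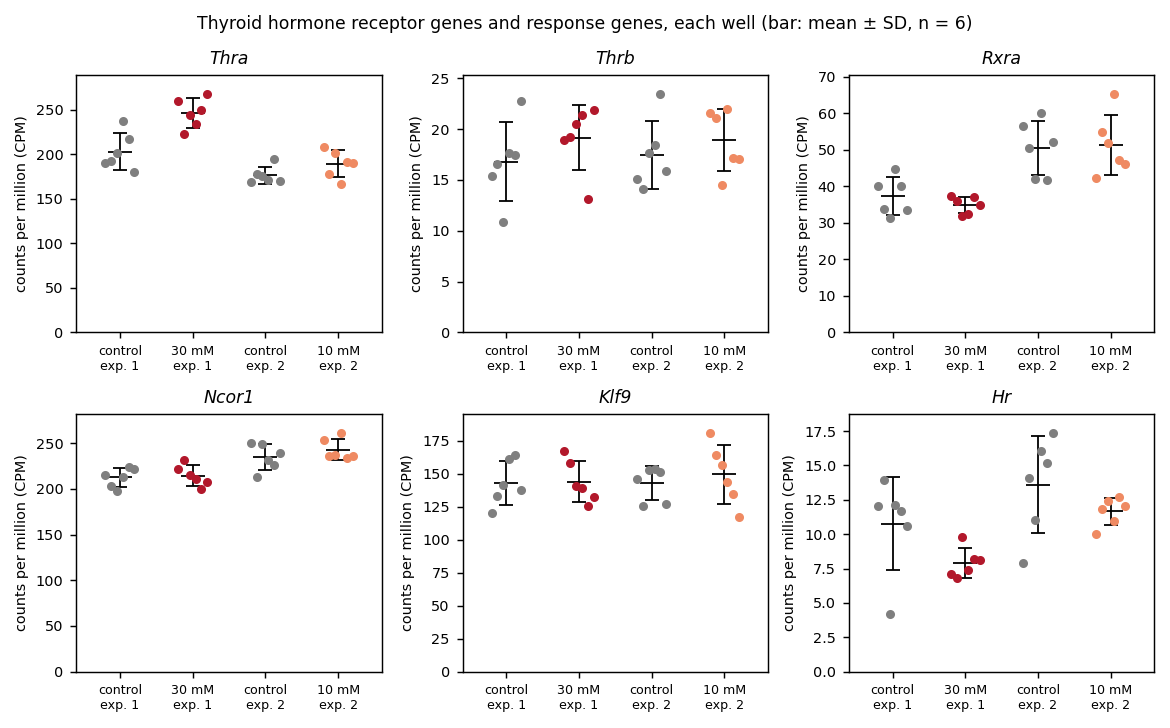
CPM in each well (points) with the mean and SD of each group of 6 wells (bars) for Thra, Thrb, Rxra, Ncor1, Klf9 and Hr, with axes from 0. Thra is the gene whose 30 mM wells (223 to 268 CPM) mostly stand above their controls (180 to 237 CPM), and the Rxra wells of experiment 2 lie mostly above those of experiment 1.

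Thra codes for thyroid hormone receptor alpha, the main form of the receptor in brain. Its lowest, median and highest wells were 223, 246 and 268 CPM at 30 mM, against 180, 196 and 237 CPM in the controls of experiment 1. Most ethanol wells were thus above the controls, but the groups overlapped, since ethanol replicates 2 (223 CPM) and 4 (234 CPM) lay below control replicate 4 (237 CPM). The group means were 246 ± 16.5 and 203 ± 20.7 CPM (SD, n = 6 each), a log2 fold change of 0.27 (SE 0.0717, 95% interval 0.13 to 0.42, edgeR adjusted p = 0.00958), or 1.21-fold. In a bulk sample a change in the share of a cell type and a change in RNA per cell cannot be told apart. The call ended when genes with low counts were kept in the fit (log2 fold change 0.24, edgeR adjusted p = 0.0789).

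At 10 mM the Thra wells had a lowest, median and highest level of 167, 191 and 208 CPM, against 168, 173 and 195 CPM in the controls of experiment 2. The groups overlapped over most of their range. The log2 fold change was 0.10 (SE 0.0662, 95% interval -0.03 to 0.24, edgeR adjusted p = 0.628). The difference between the ethanol effects at 30 and at 10 mM was 0.15 on the log2 scale (SE 0.102, 95% interval -0.05 to 0.36, edgeR adjusted p = 0.449), so a different Thra response in the 2 experiments was not shown. None of the 6 genes passed this test of the difference, where 3.28% of 14655 genes did (2.4% with a lower effect at 30 mM), and the edgeR adjusted p-values of the other 5 lay between 0.700 and 0.909. The count was also 0 at an unadjusted p under 0.05 and with DESeq2 or limma voom, where DESeq2 gave no adjusted p-value for Hr and Thrb.

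Markers of several cell types also differed at 30 mM, where 9.67% of all genes tested passed. The summed astrocyte markers were 4617 to 5844 CPM at 30 mM against 3583 to 4203 CPM in the controls, and 4 of 8 rose. The summed oligodendrocyte markers were 5566 to 9673 CPM against 4635 to 5240 CPM, and of the 9 markers 5 rose and 1 fell (Olig1, log2 fold change -0.25, edgeR adjusted p = 0.0159). The 5 that rose, Mbp, Mag, Cnp, Mobp and Myrf, are also in the list of myelin genes described below, so the lists are not separate observations. Mog, Sox10 and Olig2 did not pass. Fibroblast markers went the other way, with 207 to 267 CPM at 30 mM against 364 to 570 CPM in the controls, and 4 of 5 fell. The summed endothelial and mural markers were 134 to 273 CPM against 425 to 522 CPM, where 2 of the 6 tested fell, Acta2 and Tagln, which code for contractile proteins of smooth muscle. In the other lists 0 of 5 precursor markers passed, 1 of 4 tested microglia markers rose and 1 of 4 tested neuron markers fell. The part of these marker shifts in the Thra difference was not tested. Without 30 mM replicate 1, which had the highest oligodendrocyte sum and the lowest astrocyte sum of its group, the Thra log2 fold change was 0.25 (edgeR adjusted p = 0.0162). At 10 mM, where 0.657% of all genes tested passed, 2 of 5 fibroblast markers fell and 2 of 9 oligodendrocyte markers rose. In the other lists 1 of 7 tested microglia markers rose, 1 of 4 tested neuron markers fell and 0 astrocyte, precursor, endothelial or mural markers passed. DESeq2 called 2 oligodendrocyte markers at 10 mM and 0 in the other lists.

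**Figure D3:**
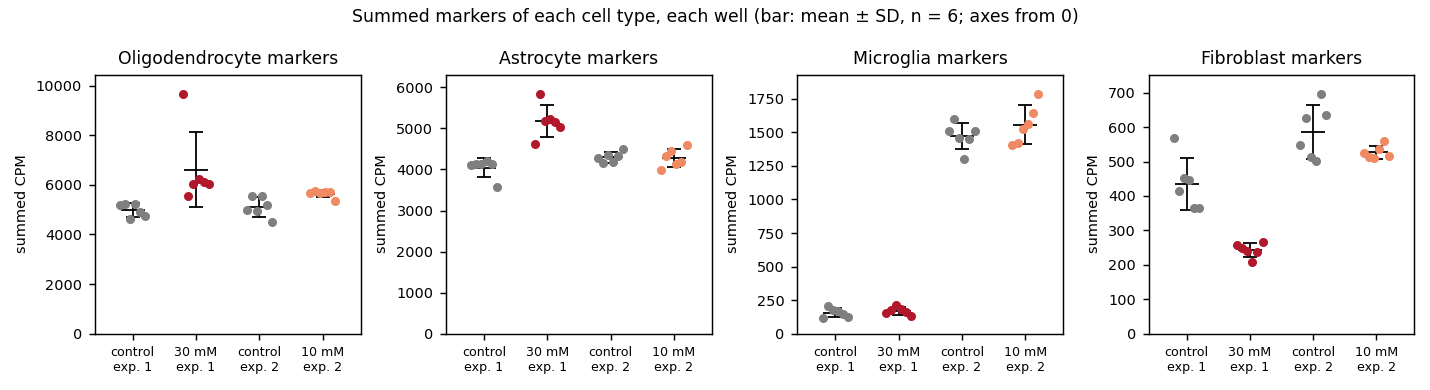
Summed CPM of the markers of 4 cell types in each well (points) with the mean and SD of each group of 6 wells (bars), with axes from 0. At 30 mM the astrocyte sums (4617 to 5844 CPM) lie above and the fibroblast sums (207 to 267 CPM) below those of the controls, and the microglia sums differ mainly between the experiments.

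The tags of Nr1d1, the gene that overlaps the end of Thra-201, were few beside those of Thra, with 433 counts in all 24 wells, or 6.27% ± 1.27 (SD, n = 24) of the Thra counts per well. Nr1d1 was at 15.1 ± 1.56 CPM at 30 mM and 13.5 ± 2.18 CPM in its controls (SD, n = 6 each), with a log2 fold change of 0.17 (edgeR adjusted p = 0.644). Tags from the overlap that were counted to Thra, or to neither gene, would be missing from these Nr1d1 counts, and their part in the Thra difference was not tested. At 10 mM each Nr1d1 well (8.46 to 10.5 CPM) was below each control well (11.1 to 14.4 CPM), a separation that 0.894% of all genes tested had, but the test did not pass (log2 fold change -0.42, SE 0.211, edgeR adjusted p = 0.491).

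Thrb codes for receptor beta, which includes the form known for hormone feedback. Its lowest, median and highest wells were 13.1, 19.9 and 21.8 CPM at 30 mM and 10.8, 17.0 and 22.8 CPM in the controls of experiment 1. In experiment 2 they were 14.5, 19.2 and 22.0 CPM at 10 mM and 14.1, 16.8 and 23.5 CPM in the controls. The groups of each experiment overlapped almost completely. The log2 fold changes were 0.21 at 30 mM (SE 0.184, 95% interval -0.16 to 0.58, edgeR adjusted p = 0.525) and 0.12 at 10 mM (SE 0.170, 95% interval -0.21 to 0.46, edgeR adjusted p = 0.871). At 16 to 32 counts a well in experiment 1, the 30 mM interval of Thrb holds both 0 and the Thra value of 0.27. An antisense RNA annotated across Thrb, Gm48321, had 32 counts in all wells together.

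Rxra codes for retinoid X receptor alpha, the partner with which the hormone receptors bind DNA. Its lowest, median and highest wells were 32.0, 35.4 and 37.3 CPM at 30 mM and 31.3, 37.0 and 44.6 CPM in the controls of experiment 1. The corresponding values were 42.3, 49.4 and 65.3 CPM at 10 mM and 41.7, 51.3 and 60.1 CPM in the controls of experiment 2. Within each experiment the groups overlapped, and 3 of the 6 control wells of experiment 1 exceeded every 30 mM well. The log2 fold changes were -0.10 at 30 mM (SE 0.124, 95% interval -0.35 to 0.15, edgeR adjusted p = 0.683) and 0.04 at 10 mM (SE 0.108, 95% interval -0.18 to 0.25, edgeR adjusted p = 0.949).

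The retinoid X receptors were read mostly as Rxra and Rxrb. Per well, Rxra gave 43.6% ± 5.61, Rxrb 47.5% ± 7.39 and Rxrg 8.94% ± 2.90 of the counts of the 3 genes (SD, n = 24). By group, the mean Rxra share was 38.7% at 30 mM and 41.0% in its controls, against 47.8% at 10 mM and 46.7% in its controls. Rxrb had log2 fold changes of 0.11 at 30 mM (edgeR adjusted p = 0.618) and 0.01 at 10 mM (edgeR adjusted p = 0.982). Rxrg was too low to be tested at 30 mM and had a log2 fold change of -0.26 at 10 mM (edgeR adjusted p = 0.752).

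Ncor1, which recruits histone deacetylase 3 to receptors without hormone, had the smallest spread relative to its level. Its lowest, median and highest wells were 200.2, 213 and 232 CPM at 30 mM and 198, 214 and 224 CPM in the controls of experiment 1. In experiment 2 they were 233, 237 and 261 CPM at 10 mM and 213, 236 and 250 CPM in the controls. The groups of each experiment covered nearly the same range. The log2 fold changes were 0.02 at 30 mM (SE 0.0667, 95% interval -0.12 to 0.15, edgeR adjusted p = 0.910) and 0.05 at 10 mM (SE 0.0602, 95% interval -0.07 to 0.17, edgeR adjusted p = 0.834). From gene start to gene end, introns included, the opposite-strand gene Ttc19 overlaps Ncor1 over 12026 bases, and Ttc19 was itself read at 47.8 CPM. How much of that overlap lies in exons was not examined, and tags of the 2 genes cannot be told apart where their exons overlap.

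The other corepressor and coactivator genes showed no call for ethanol. Over all genes tested, 9.67% passed at 30 mM and 0.657% at 10 mM, so lists this short can lack a call without differing from other genes. Of the 5 corepressor genes reported 0 passed at 30 mM and 0 at 10 mM (Ncor1, the deacetylase Hdac3 and the complex subunits Tbl1x, Tbl1xr1 and Gps2). DESeq2 and limma voom also called 0, and by edgeR 0 had an unadjusted p under 0.05. In the coactivator list 0 of 7 passed at each dose, with 0 at an unadjusted p under 0.05 and 0 called by DESeq2 or limma voom (Ncoa1, Ncoa2, Ncoa3, Ncoa6, the Mediator subunit Med1 and the acetyltransferases Ep300 and Crebbp).

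**Figure D4:**
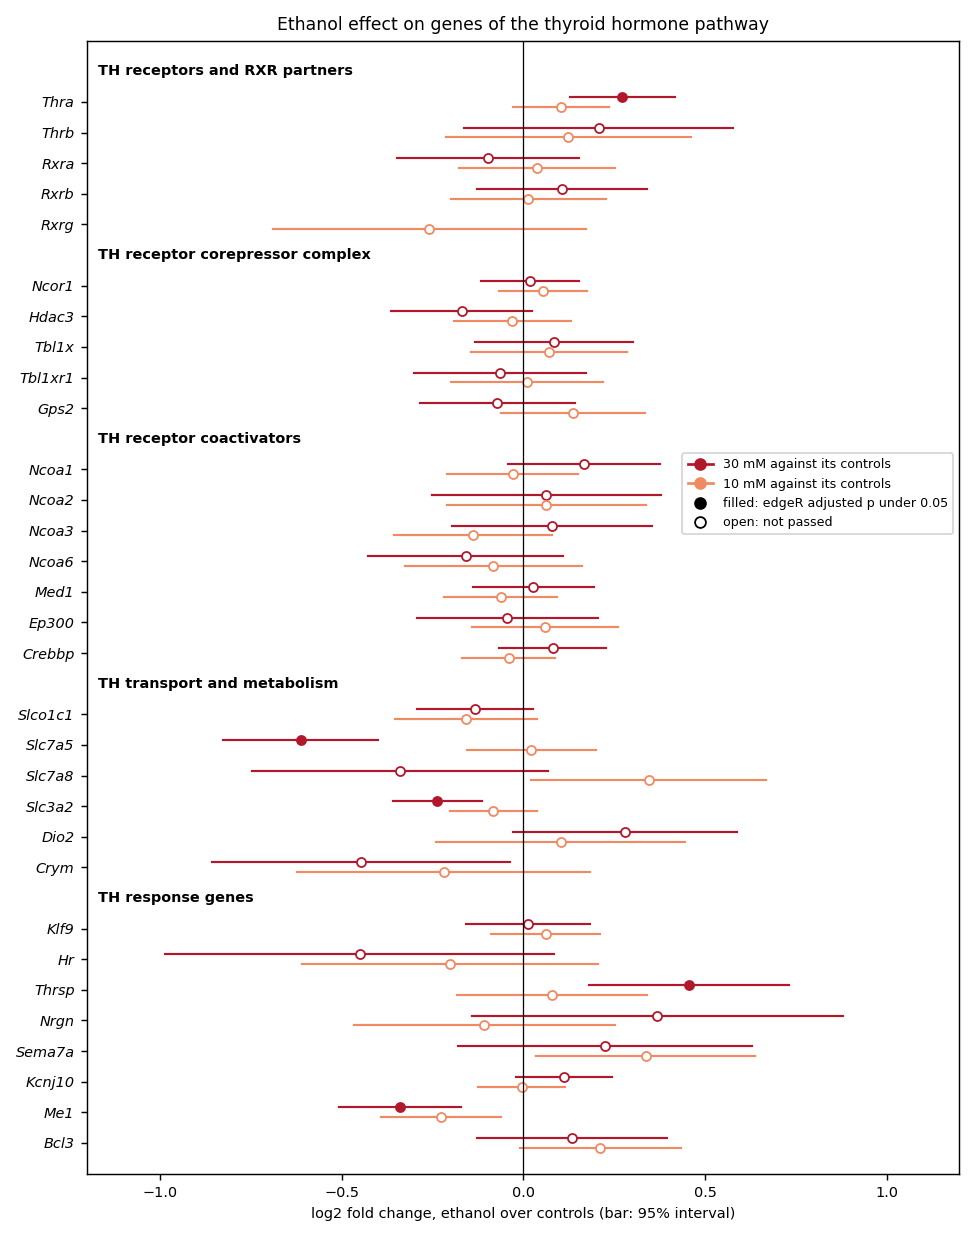
Log2 fold change (points) and 95% interval (bars) of each tested and reported gene of the thyroid hormone lists at 30 mM (dark) and 10 mM (light) against the controls of the same experiment. Filled points passed the edgeR test: Thra and Thrsp were higher and Slc7a5, Slc3a2 and Me1 lower at 30 mM, and none is filled at 10 mM.

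Klf9 is a direct T3 target that takes part in oligodendrocyte differentiation and myelin repair. Its lowest, median and highest wells were 126, 140.0 and 167 CPM at 30 mM and 121, 140 and 164 CPM in the controls of experiment 1. In experiment 2 they were 117, 150.0 and 181 CPM at 10 mM and 125, 149 and 154 CPM in the controls. The groups overlapped throughout, and the 10 mM wells were the most spread. The log2 fold changes were 0.01 at 30 mM (SE 0.0846, 95% interval -0.16 to 0.18, edgeR adjusted p = 0.945) and 0.06 at 10 mM (SE 0.0759, 95% interval -0.09 to 0.21, edgeR adjusted p = 0.856). All 4 groups had means between 143 and 149 CPM, which makes Klf9 the member whose group means lay closest together in relative terms.

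Hr codes for hairless, a corepressor that binds the hormone receptors. Its lowest, median and highest wells were 6.83, 7.73 and 9.83 CPM at 30 mM and 4.22, 11.9 and 14.0 CPM in the controls of experiment 1. Of the control wells, 5 of 6 were above every ethanol well, and the other, replicate 3, was below every ethanol well. The means were 7.90 ± 1.09 and 10.8 ± 3.39 CPM (SD, n = 6 each), and the log2 fold change of -0.45 did not pass (SE 0.266, 95% interval -0.99 to 0.09, edgeR adjusted p = 0.308). At 10 mM the wells were at 10.0, 11.9 and 12.7 CPM against 7.89, 14.6 and 17.4 CPM in the controls, with a log2 fold change of -0.20 (SE 0.205, 95% interval -0.61 to 0.21, edgeR adjusted p = 0.806). The 4 groups rest on 65 to 110 Hr counts in all, and a difference of the size seen at 30 mM was not separable from the spread at this depth.

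Genes that carry the hormone fell in part at 30 mM. Of the 9 transport and metabolism genes reported, 6 could be tested, and 2 fell at 30 mM and 0 rose. These were Slc7a5 and Slc3a2, the light and heavy chains of LAT1, a transporter known for large neutral amino acids that also carries thyroid hormones. The median log2 fold change of the 6 tested genes of this list was -0.29, beside 0.02 for all genes tested. Of all genes tested, 9.67% passed at 30 mM and 0.657% at 10 mM. At 10 mM 0 of 6 passed by edgeR, DESeq2 or limma voom, with 1 at an unadjusted p under 0.05 by edgeR (Slc7a8) and a median of -0.03.

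Slc7a5 was at 39.3 CPM in the lowest, 52.1 CPM in the median and 65.7 CPM in the highest 30 mM well, against 67.8, 83.6 and 89.7 CPM in the controls. Every ethanol well was below every control well, a separation that 4.98% of all genes tested had at 30 mM in either direction. The means were 53.0 ± 9.68 and 81.6 ± 7.65 CPM (SD, n = 6 each), which gave -0.61 on the log2 scale with an SE of 0.106 (edgeR adjusted p = 6.49e-05), or 0.654-fold. At 10 mM the value was 0.02 (SE 0.0890, edgeR adjusted p = 0.964), and the difference between the ethanol effects passed at -0.65 (SE 0.143, edgeR adjusted p = 0.00333). Slc3a2 was at 295 to 343 CPM in the 30 mM wells and 350 to 405 CPM in the controls, again without overlap, and the log2 fold change was -0.24 with an SE of 0.0605 (edgeR adjusted p = 0.00730). Its 10 mM value was -0.08 (SE 0.0597, edgeR adjusted p = 0.691), and the difference between the effects did not pass for Slc3a2 (-0.16, edgeR adjusted p = 0.323).

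The thyroid hormone transporter OATP1C1, coded by Slco1c1, did not pass at either dose, with log2 fold changes of -0.13 at 30 mM and -0.16 at 10 mM (edgeR adjusted p = 0.309 and 0.622). Dio2, the deiodinase that makes T3 from its precursor, was read at 27.9 ± 2.82 CPM at 30 mM and 22.9 ± 4.89 CPM in its controls (SD, n = 6 each), with a log2 fold change of 0.28 (edgeR adjusted p = 0.267). Dio3, which inactivates the hormone, had 24 counts in all 24 wells together, and Dio1 had 0. For Dio1 a count of 0 allows up to 1.65 to 2.53 CPM per well, which covers counting error only.

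Of the 14 genes of the response list, 8 could be tested at 30 mM, and 1 rose and 1 fell. Over all genes tested, 3.02% passed as higher and 6.65% as lower at 30 mM. Thrsp, a lipogenic gene first described through its response to T3, was at 37.3, 46.8 and 57.4 CPM in the lowest, median and highest 30 mM wells and at 22.6, 33.6 and 44.2 CPM in the controls. The groups overlapped, with 30 mM replicates 2 and 4 below control replicates 1 and 5. The log2 fold change was 0.45 (SE 0.137, edgeR adjusted p = 0.0254). The call was lost with DESeq2 (adjusted p = 0.0513), and without 30 mM replicate 5 (edgeR adjusted p = 0.0771), control replicate 2 (0.0873) or control replicate 4 (0.0798).

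Me1, the malic enzyme that supplies NADPH for fatty acid synthesis and a classical T3 target in liver, was at 90.9, 120 and 134 CPM in the lowest, median and highest 30 mM wells. Its controls were at 134, 152 and 161 CPM, so the groups touched at their edges only. The log2 fold change was -0.34 (SE 0.0833, edgeR adjusted p = 0.00513). Thrsp and Me1 therefore moved in opposite directions at 30 mM. At 10 mM 0 of 8 passed by edgeR, DESeq2 or limma voom, with 2 at an unadjusted p under 0.05 by edgeR (Me1 and Sema7a), and with log2 fold changes of 0.08 for Thrsp (edgeR adjusted p = 0.898) and -0.23 for Me1 (edgeR adjusted p = 0.257). The neuronal genes Nrgn and Sema7a, the channel gene Kcnj10 and the regulator gene Bcl3 did not pass at either dose, and neither did Klf9 and Hr.

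**Figure D5:**
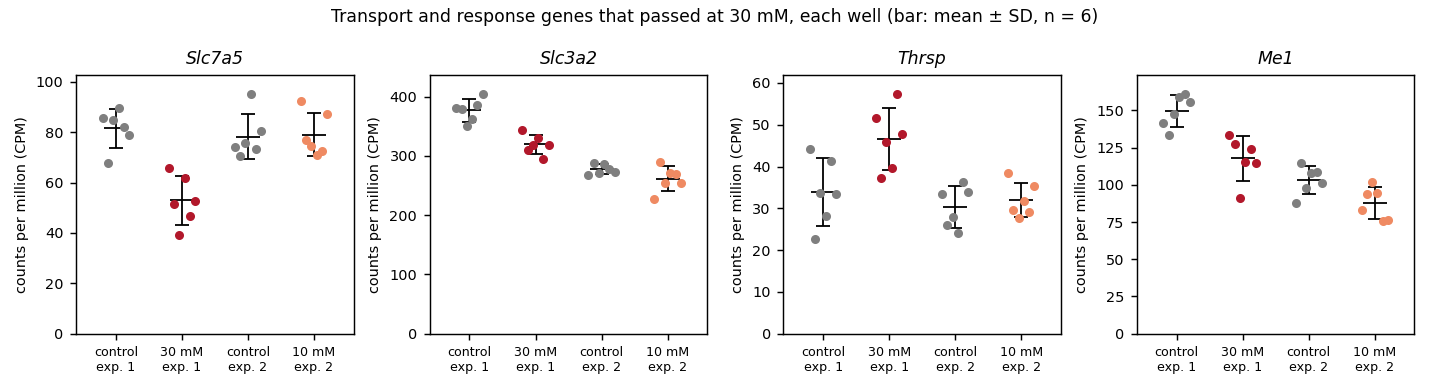
CPM in each well (points) with the mean and SD of each group of 6 wells (bars) for Slc7a5, Slc3a2, Thrsp and Me1, with axes from 0. The 30 mM wells of Slc7a5 (39.3 to 65.7 CPM) and Slc3a2 (295 to 343 CPM) lie wholly below their controls, and those of Thrsp and Me1 overlap them.

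Myelin genes, whose onset T3 is known to promote, rose in part. Of 8 genes 6 passed at 30 mM and all 6 were higher (Mbp, Mag, Cnp, Mobp, Myrf and Mal, with log2 fold changes of 0.35 to 0.78), with a list median of 0.51. Over all genes tested, 3.02% passed as higher at 30 mM and 0.391% at 10 mM. The count was also 6 without 30 mM replicate 1, with a median of 0.35, and Cnp lost its call with DESeq2 (adjusted p = 0.0508). At 10 mM 3 of 8 passed and were higher, Mag (0.36), Cnp (0.25) and Mal (0.38), with a median of 0.16. In 1 fit of all 24 wells Cnp and Mal lost the call (edgeR adjusted p = 0.136 and 0.0784). The difference between the ethanol effects passed for 2 of the 8, Mbp and Mobp, with a larger effect at 30 mM. Without 30 mM replicate 1 it passed for 0 of the 8. Over 6 other settings and 24 fits without 1 well, the Mbp call was lost in 19 and the Mobp call in 4. With DESeq2 both calls were lost (adjusted p = 0.169 and 0.154). A stronger myelin gene response at 30 mM was thus not stable to single wells and settings. Klf9 beside the myelin genes had log2 fold changes of 0.01 at 30 mM and 0.06 at 10 mM.

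The controls differed between the experiments, which was tested to show how much the genes vary without ethanol. Of the 6 genes 2 passed, 1 higher and 1 lower in experiment 1, where 43.6% of 13479 genes did (21.3% higher and 22.3% lower). Thra was higher in the controls of experiment 1, with 203 ± 20.7 against 176 ± 9.69 CPM (SD, n = 6 each), or 0.26 on the log2 scale with an SE of 0.0686 (edgeR adjusted p = 0.00151). This difference between untreated groups was about as large as the 0.27 seen at 30 mM. Rxra was lower in experiment 1, with 37.3 ± 5.13 against 50.5 ± 7.52 CPM (SD, n = 6 each), or -0.38 on the log2 scale with an SE of 0.116 (edgeR adjusted p = 0.00518). The control wells overlapped for both genes, as they did for all but 18.9% of the genes tested.

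The other members did not pass between the controls, with log2 fold changes of 0.05 for Klf9, -0.28 for Hr, -0.02 for Thrb and -0.10 for Ncor1 (edgeR adjusted p = 0.592, 0.310, 0.933 and 0.183). Scaled by library size alone, Ncor1 passed as lower in experiment 1 (-0.16, edgeR adjusted p = 0.0233). Cell type markers also differed between the controls, beside both Thra and Rxra. The summed microglia markers were 116 to 203 CPM in the controls of experiment 1 and 1304 to 1597 CPM in those of experiment 2, and 7 of the 7 tested markers were lower in experiment 1. Of the precursor markers 4 of 5 were lower there, as were 4 of 5 fibroblast markers, while of the 8 astrocyte markers 5 were higher and 2 lower. The summed endothelial and mural markers were 425 to 522 CPM in experiment 1 against 86.0 to 133 CPM in experiment 2, with 2 of the 6 tested higher (Acta2 and Tagln) and 1 lower (Flt1). Of the 9 oligodendrocyte markers 1 was higher and 2 were lower in experiment 1. The part of these cells in the Thra and Rxra differences was not tested.

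Among the partner genes, Rxrg was also lower in the controls of experiment 1 (log2 fold change -0.79, SE 0.238, edgeR adjusted p = 0.00494), whereas Rxrb had a value of 0.11 (edgeR adjusted p = 0.433). Over all genes tested, 43.6% passed between the controls. The share was 20% of the corepressor genes, 28.6% of the coactivator genes, 50% of the tested transport genes and 37.5% of the tested response genes. Of the 5 corepressor genes, Hdac3 was lower (-0.29, edgeR adjusted p = 0.00315). Of the 7 coactivator genes, Crebbp (-0.37, edgeR adjusted p = 5.24e-06) and Ncoa3 (-0.30, edgeR adjusted p = 0.0275) were lower, and the Ncoa3 call was lost without control replicate 1, 3 or 5 of experiment 1 or control replicate 3 of experiment 2 (edgeR adjusted p = 0.0614 to 0.0690). It was also lost with no low-count filter (edgeR adjusted p = 0.137), with DESeq2 (adjusted p = 0.0677) and in 1 fit of all 24 wells (edgeR adjusted p = 0.0577). Of 6 transport genes 3 were higher and 0 lower: Slco1c1 (1.00), Slc3a2 (0.48) and Crym (0.66), which codes for a protein that binds T3 in the cytosol. The Crym call was lost without control replicate 4 of experiment 1 (0.43, edgeR adjusted p = 0.0765). Of the 8 tested response genes 2 were higher, Me1 and Kcnj10, and 1 was lower, Nrgn. Over the alternative settings the Me1 log2 fold change was 0.53 to 0.64 between the controls and -0.37 to -0.33 at 30 mM ethanol.

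Within groups the 6 genes did not vary as 1 block. After each group's mean was removed from log2 CPM, the highest Pearson correlation between members over the 24 wells was 0.50 (Klf9 with Ncor1), followed by 0.39 (Klf9 with Thra), and the lowest was -0.23 (Klf9 with Hr). Thra and Thrb gave -0.10. Among 6518 other genes, those most like Klf9 were Mrps6 (0.88), Trp53inp2 (0.85) and Rpl22 (0.85), and those most like Ncor1 were Elovl6 (0.78), Sgo1 (0.77) and Ddx17 (0.77). Thra was most like Tmed7 (0.68), Rrp36 (0.68) and Megf9 (0.67), and Rxra was most like Tpd52l2 (0.73), Yeats4 (0.67) and Slc22a17 (0.66). The low counts of Thrb and Hr gave Adcy5 (0.63) and Ncaph (0.71) as their nearest genes. These values describe the wells, which share library depth and composition, and carry no test.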

How the data were processed

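The authors deposited 1 matrix of raw counts per gene and well. Per the submitters' processing notes, reads were trimmed with cutadapt 1.18 and aligned with STAR to GRCm39, and the counting tool is not given in the sources used here. Wells were grouped by their labels. Of the identifiers, 52083 (94.1%) had a gene symbol. Genes that passed edgeR's low-count filter (filterByExpr, minimum count 10) were scaled by TMM and tested with edgeR 4.0.16 in R 4.3.3 (quasi-likelihood, 6 wells per group, each dose with its own controls, all 4 groups for the difference between effects). The procedure was tested on simulated data. Alternatives were DESeq2 1.42.0, limma voom 3.58.1, other scalings, no filter, 1 fit of all wells, a replicate block and leaving out each well. Genes to which DESeq2 gave no adjusted p-value were counted as not called by it. CPM are counts per 1e6 of the column total. The 60 pairs of wells of 1 group differed by 1.07 to 2.88 chi-square per degree of freedom, so no pair was a copied column. Counting error alone gives about 1, so these values do not show whether wells share a cell preparation.

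The 6 genes and all lists were chosen with earlier results of these data known, and 2 list genes are not reported here. Genes named from the lists are those that passed in an ethanol comparison, up to 4 per list and comparison by smallest p, the highest and lowest of each list, overlapping genes, and the 3 genes most like each member (log2 CPM with a prior count of 2, mean of at least 5). List genes named without a call, and calls between the controls, were named after their values were seen.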

Additional observations from a re-analysis of the deposited data

Results flagged for a closer look

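Of 28 series of 6 wells tested for a single well far from the rest, 3 stood out, where chance gives about 1.4. Thrb was at 13.1 CPM in 30 mM replicate 5, with the nearest well at 18.9 CPM. Hr was at 4.22 CPM in control replicate 3 of experiment 1, with the nearest well at 10.6 CPM. Thra was at 195 CPM in control replicate 5 of experiment 2, with the nearest well at 177 CPM.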

How the results depend on the processing

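Over 66 results and 1348 recomputed values, 1243 kept their direction and side of the threshold, 83 lost the threshold, 1 gained it and 21 changed sign. Sign changes concerned values near 0. With no low-count filter, Klf9 (-0.015) and Ncor1 (-0.013) at 30 mM and Thrb between the controls (0.029) changed sign, as did Klf9 between the controls by library size alone (-0.0035). Leaving out 1 well gave -0.0400 to 0.0570 for Klf9 and -0.0189 to 0.0443 for Ncor1 at 30 mM, -0.0497 to 0.0918 for Rxra and -0.0222 to 0.0853 for Slc7a5 at 10 mM, -0.0382 to 0.148 for Thrb in the difference and -0.0926 to 0.0846 for Thrb between the controls. The number of genes called was 953 to 1563 at 30 mM and 5367 to 6250 between the controls. It was 329 to 759 for the difference (759 without 30 mM replicate 1, 723 without replicate 2) and 37 to 95 at 10 mM (40 and 45 without 10 mM replicate 2 or 4, and 57, 37 and 46 without control replicate 4, 5 or 6), beside 481 and 89. At 10 mM DESeq2 called 39 and 1 fit of all wells 21. The cause was not tested. The share of calls that were higher was 59.6% at 10 mM, but 83.1% without the filter, 74.4% with DESeq2 and 76.2% in 1 fit of all wells. For the difference it was 26.8%, but 14.2% without the filter and 15% with DESeq2. Replicate numbers did not pair the wells (same-number correlations of -0.185 to 0.250 at 30 mM). A replicate block gave 1208 calls at 30 mM, 5860 between the controls, 461 for the difference and 68 at 10 mM, and no call of the 6 genes changed. Depth limits Hr (7 to 24 counts a well) and Thrb (16 to 38) most.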

Other observations

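Calls were also counted in other gene groups that share members or partners with the thyroid hormone system. Over all genes tested, 9.67% passed at 30 mM and 0.657% at 10 mM. Lists this short can thus hold 0 or 1 call without differing from other genes. Of 11 tested Kruppel-like factor genes 0 passed at 30 mM and 0 at 10 mM by edgeR, DESeq2 or limma voom. At an unadjusted p under 0.05 by edgeR, the count was 3 at 30 mM (Klf3, Klf6 and Klf13) and 2 at 10 mM (Klf7 and Klf13). Klf13, the closest paralog of Klf9, had log2 fold changes of 0.18 and 0.20 (edgeR adjusted p = 0.189 and 0.394). Between the controls Klf13 was higher in experiment 1 (0.52, SE 0.0858, edgeR adjusted p = 4.79e-07), where Klf9 had 0.05.

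Of the nuclear receptors that also pair with retinoid X receptors, 0 of 8 passed at 30 mM and 0 of 9 at 10 mM by edgeR, DESeq2 or limma voom, with 0 at an unadjusted p under 0.05 by edgeR at each dose. Of 9 tested clock output genes 0 passed at each dose by edgeR, DESeq2 or limma voom, with 0 at 30 mM and 1 at 10 mM (Nr1d1) at an unadjusted p under 0.05 by edgeR. Of 11 tested glucocorticoid response genes, a list that includes Klf9, 1 rose at 30 mM, Ddit4 (0.41, SE 0.128, edgeR adjusted p = 0.0313), and 0 passed at 10 mM by edgeR, DESeq2 or limma voom, with 1 at an unadjusted p under 0.05 by edgeR (Cdkn1a). The Ddit4 call was lost with DESeq2 (adjusted p = 0.0907), with limma voom (adjusted p = 0.0533), and without 30 mM replicate 1, 2 or 4 or control replicate 1, 2, 3 or 5 (edgeR adjusted p = 0.0552 to 0.127).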
